A study of Ovis aries with 15 samples.

Results

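The ruminal epithelium of lambs on either of 2 high-grain diets was compared with that of lambs on the control diet, by pooling the 10 libraries labelled HG or HP into 1 group and setting it against the 5 labelled CON. These are all 15 libraries of the study. Members of the 2 groups were chosen by diet label alone. The tissue came from male Hu lambs aged 6 months, a Chinese breed of sheep, and all 3 groups share this breed, sex and age. From the series title, which speaks of high-grain feed given as pellets or not, HG was read as the diet without pellets, HP as the pelleted diet and CON as the control. RNA was extracted with Trizol from frozen epithelium. The sources used here do not give the composition of the diets, the days of feeding or the tissue layers removed. Nor do the labels say outright that each library is its own animal, so p-values measure the spread between these libraries, which may in part be technical. Of the 19304 genes in the tables, 13084 reached 1 FPKM in at least 5 of the 15 libraries and were tested. FPKM is a level per transcript length and per mapped fragments of the library.

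The rumen is lined by a stratified squamous epithelium. Its basal cells sit on a basement membrane through hemidesmosomes, divide, and give rise to spinous, granular and cornified layers that are held together by desmosomes and other junctions. Grain is fermented quickly to short-chain fatty acids, which this epithelium takes up, partly oxidizes in its mitochondria and partly turns into ketone bodies, while transporters for sodium, protons and bicarbonate hold the pH of its cells. Growth factor signalling and growth of the papillae are known parts of the adaptation to grain-rich feed.

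All 12 defining markers of stratified squamous epithelium were present in every library, for example KRT6A, a keratin of stratified epithelia, at 2558.2 to 4072.1 FPKM. Marker genes of smooth muscle were uneven. Their summed level was 1689.8 FPKM in CON1, 5494.3 in HG2, 3412.7 in HG3 and 3259.5 in HP5, against 185.1 to 807.2 in the other 11 libraries. Libraries also differed in how FPKM was spread over genes. The median gene had 5.74 ± 1.07 FPKM in CON (SD, n = 5) and 6.92 ± 0.308 in the pooled group (SD, n = 10). CON1 and CON3 stood lowest, at 5.19 and 4.17 FPKM. The median-ratio factor, the median over genes of a library's FPKM divided by the gene's geometric mean over all libraries, was 0.921 ± 0.138 in CON and 1.06 ± 0.0331 in the pooled group, a difference of 0.142 (two-sided exact permutation test over 3003 assignments, p = 0.003). It was 0.86 in CON1 and 0.71 in CON3. Without these 2 libraries the difference was 0.0513 (exact p = 0.049). Genes of cytosolic ribosomal proteins took 29.6% of all FPKM in CON1 and 32.2% in CON3, 23.8% to 25.5% in the other CON libraries and 18.4% to 26.1% in the pooled group. Sequencing depth is unknown for FPKM.

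With FPKM as deposited, 1566 genes rose on the high-grain diets, 12% of those tested, and 319 fell, or 2.44% (limma on log2(FPKM + 1), Benjamini-Hochberg adjusted p under 0.05). The median change of the genes that rose was 0.66 on the log2 scale and that of the genes that fell was -0.53. All genes tested had a median of 0.17 on this scale, and 3726 (28.5%) had an unadjusted p under 0.05 with a higher level on grain. With each library divided by its median-ratio factor this shift was 0.00, 653 genes rose (4.99%) and 713 fell (5.45%). The share of rising genes among those called therefore went from 83.1% to 47.8% with the scaling. All 653 genes called higher after scaling were also called higher before it, and all 319 called lower before scaling were called lower after it. FPKM divides by transcript length, and whether the genes called higher and those called lower differ in length was not tested. Changes below are on the log2(FPKM + 1) scale without scaling unless stated, and the scaled value is named as such.

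The number of calls depended on single libraries. Without CON1, without CON3 or without CON5, limma called 0 genes on either scale. The smallest limma adjusted p was then 0.0626, 0.0787 and 0.0601 as deposited, against 0.029 with all 15 libraries. As deposited, 2826, 2283 and 3451 genes then had an unadjusted p under 0.05 in the higher direction, and 735, 653 and 694 in the lower. Without HP3, 5 genes were called as deposited and 6 after scaling. As deposited, 3406 genes then had an unadjusted p under 0.05 in the higher direction and 822 in the lower. With all 15 libraries these numbers were 3726 and 885. Leaving out CON2 instead raised the counts to 3121 higher and 638 lower. When CON1 and CON3 were both left out the smallest limma adjusted p was 0.256, and 1148 genes had an unadjusted p under 0.05 in the higher direction (8.77%) and 502 in the lower (3.84%). After scaling these shares were 5.76% and 6.44%. The 1566 genes called higher and the 319 called lower with all libraries then had medians of 0.38 and -0.39, against 0.06 for all genes, a description of genes chosen partly on the libraries that remained. Without the 4 libraries that held the most muscle transcripts, CON1, HG2, HG3 and HP5, 3 genes were called: MAP2K1, CD5L and an entry with no symbol.

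**Figure D1:**
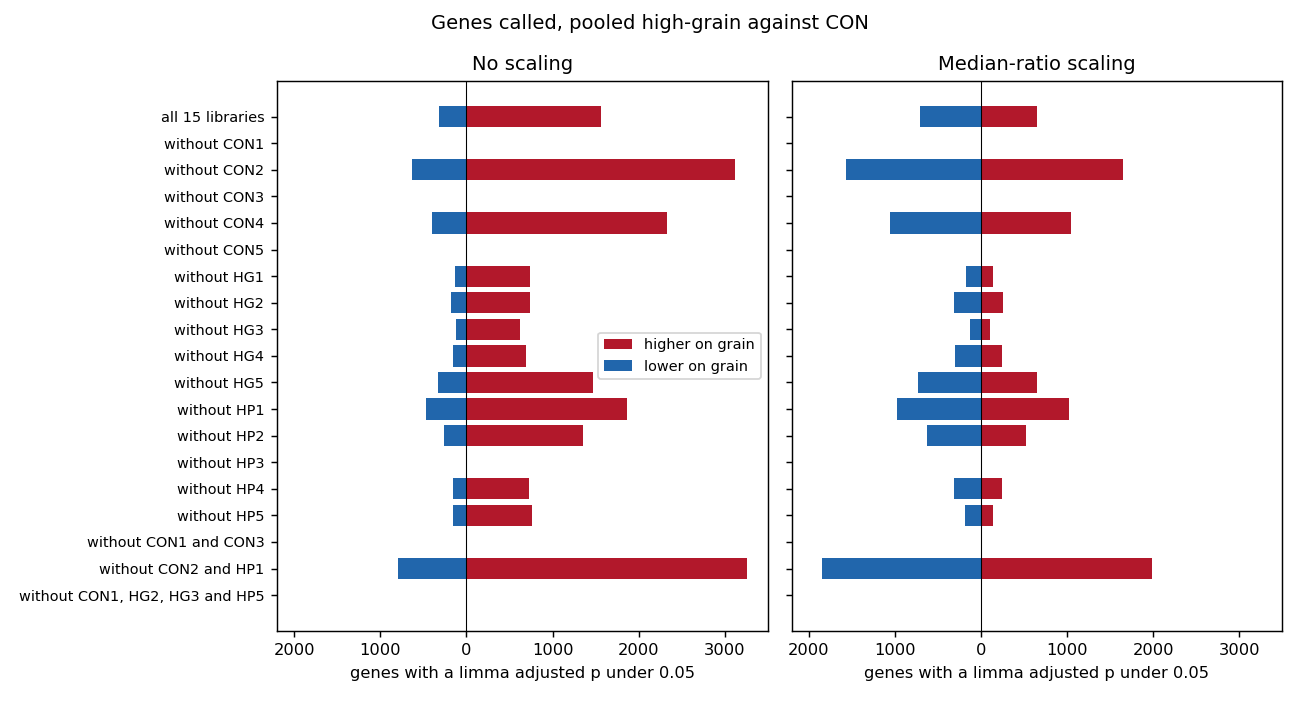
Number of genes called in the pooled comparison with all 15 libraries, with each library left out and with 3 sets of libraries left out (limma adjusted p under 0.05). Bars to the right count genes higher on high-grain diets and bars to the left genes lower; the left panel has no scaling and the right panel median-ratio scaling, and no bar appears without CON1, CON3 or CON5.

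The CON libraries were not alike in the genes that were called. Over the 653 genes called higher on both scales, the scaled level in CON3 differed from the mean of the 10 high-grain libraries by -1.13 (median log2 difference). In CON1 the difference was -0.86, in CON5 -0.65, in CON4 -0.37 and in CON2 -0.20. HP1, the lowest high-grain library, was at -0.24, below CON2. For the 319 genes called lower the order was the same, from 1.46 above the high-grain mean in CON3 to 0.21 above it in CON2, with HP1 at 0.24. So CON2 and HP1 overlapped in the typical called gene, and CON3 and CON1 stood farthest away.

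**Figure D2:**
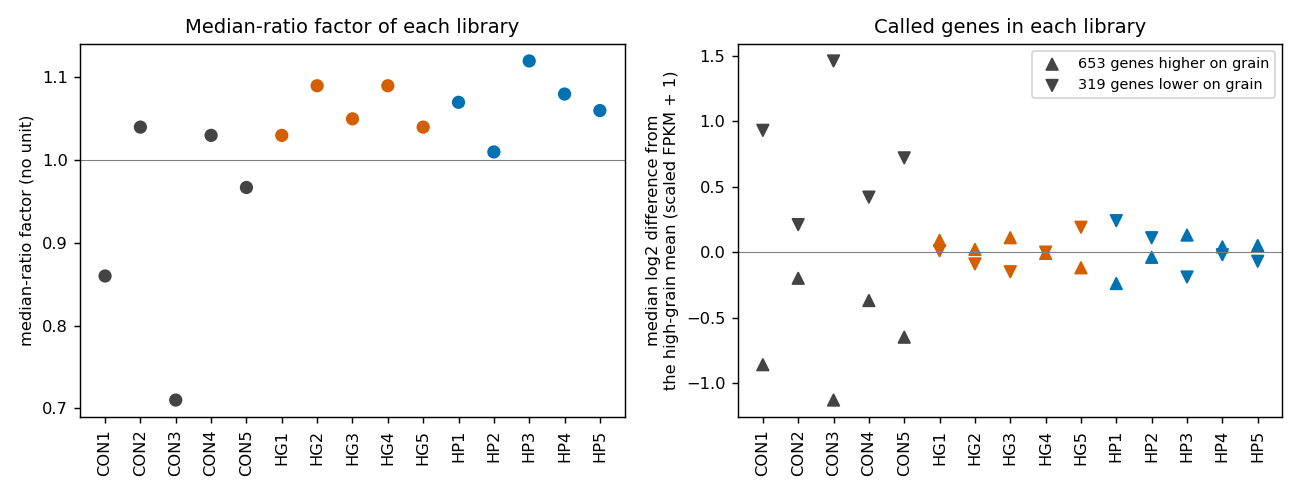
Left, the median-ratio factor of each library, with CON in grey, HG in orange and HP in blue. Right, the median distance of the called genes from the mean of the 10 high-grain libraries, on scaled log2(FPKM + 1); upward triangles are the 653 genes called higher and downward triangles the 319 called lower, and CON3 and CON1 lie farthest from 0.

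For most of the called genes at least 1 CON library lay within the range of the high-grain libraries. In 123 genes (0.94%) all 10 high-grain libraries were above all 5 CON libraries, and in 25 genes (0.191%) all were below. On both scales this held for 50 genes higher (0.382%) and 24 lower (0.183%).

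The diets were also set against each other. In HP against HG, 0 of 13084 genes were called by limma (smallest adjusted p 0.46), and 275 (2.1%) had an unadjusted p under 0.05. Among the 1566 genes that rose in the pooled comparison, 8 had such a p. The pooled fit counts a difference between the diets as spread, so its calls favour genes alike in HG and HP. That low number is therefore in part a result of the choice of genes. Tested alone against CON, HG gave 1 called gene and HP gave 7. Among called genes with at least 5 FPKM, the smallest p for a difference between the diets belonged to PASK, a kinase with a PAS domain that senses nutrients. PASK had 3.88 ± 1.47 FPKM on the control diet, against 5.96 ± 1.81 with HG feed and 10.1 ± 2.42 with HP feed (SD, n = 5), and the HP minus HG difference of 0.68 ± 0.23 (SE) had a limma adjusted p of 0.999.

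MAP2K1 had the smallest p of the comparison. It encodes MEK1, a kinase that phosphorylates the ERK kinases (gene11241 in the tables). CON1 to CON5 had 19.7, 24.0, 16.1, 28.5 and 26.9 FPKM, and the high-grain libraries 27.2 to 85.7 with a median of 70.6. HG3, at 27.2 FPKM, was the only high-grain library within the CON range, and the other 9 were at 53.4 or more. MAP2K1 rose by 1.48 ± 0.22 (SE; adjusted p = 0.029), by 1.25 in HG and 1.70 in HP against CON. After scaling the change was 1.26 (adjusted p = 0.0268). Without CON1 and CON3 it was 1.26 as deposited (unadjusted p = 0.000177) and 1.19 scaled.

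CD5L, a secreted protein of tissue macrophages also called AIM (gene1426), had the largest decrease among the leading genes. It stood at 10.1, 5.46, 13.0, 11 and 40.9 FPKM in CON1 to CON5, and between 0.0283 and 5.56 FPKM, with a median of 0.408, on the high-grain diets. HG3 at 5.56 FPKM overlapped CON2 at 5.46, and all other high-grain libraries were lower than every CON library. The change was -3.03 ± 0.45 (SE; adjusted p = 0.029), and -3.13 without CON1 and CON3 (unadjusted p = 0.000133). MAP2K1 and CD5L were also called when the 4 libraries with the most muscle transcripts were left out, with changes of 1.57 and -3.39 (adjusted p = 0.00305 and 0.0187).

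Several other leading genes rose without overlap between the groups as deposited. Of those named in this paragraph, only TUFT1 overlapped after scaling. TUFT1, a protein known from enamel and from the keratinocyte cytoskeleton, was at 17.3 to 22.5 FPKM in CON and 25.6 to 38.0 in the high-grain libraries, and rose by 0.59 ± 0.10 (SE; adjusted p = 0.029). ELL, an elongation factor of RNA polymerase II, was at 4.32, 5.93, 3.10, 5.75 and 4.87 FPKM in CON1 to CON5 and at 6.71 to 10.3 (median 8.34) on grain. CDK5RAP2, a centrosome protein, was at 2.92, 5.32, 2.56, 3.66 and 3.85 FPKM and at 5.59 to 7.51 (median 6.24). In all 3 no CON library reached the lowest high-grain library. ELL rose by 0.73 ± 0.13 and CDK5RAP2 by 0.71 ± 0.13 (SE; adjusted p = 0.029 for both). LDB1, a cofactor of LIM-domain transcription factors, and SASH1, a scaffold protein of keratinocytes and melanocytes, were also apart between the groups. LDB1 rose by 0.82 ± 0.16 and SASH1 by 0.82 ± 0.17 (SE).

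Among transcription factors of the squamous epithelium, PAX9 and KLF4 were called. PAX9 is a paired-box factor of the oral, oesophageal and forestomach epithelium. Its levels were 22.5, 62.4, 12.4, 23.1 and 17.4 FPKM in CON1 to CON5, and 49.9 to 78.0 (median 60.4) in the high-grain libraries. CON2 was in the middle of the high-grain range and the other 4 CON libraries were below it. PAX9 rose by 1.33 ± 0.25 (SE; adjusted p = 0.029). KLF4, a factor of the differentiating upper layers, was at 31.6, 58.7, 19.9, 57.1 and 38.9 FPKM in CON and at 63.6 to 87.0 (median 72.4) on grain, without overlap. It rose by 0.90 ± 0.19 (SE; adjusted p = 0.029). These 2 were the only members called among 21 tested transcription factors of the epithelium. Among all genes 12% were called higher as deposited and 4.99% after scaling. The median change of these 21 factors was 0.14 above that of all genes, and 0.09 after scaling.

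Among the leading decreases, SYPL1, a membrane protein of transport vesicles (gene7962), was at 32.0, 34.1, 39.2, 42.3 and 38.0 FPKM in CON1 to CON5 and at 14.1 to 25.4 (median 22.0) on grain. It fell by 0.78 ± 0.13 (SE; adjusted p = 0.029), and without CON1 and CON3 the change was -0.82. The groups did not overlap; CON1 was the lowest and CON4 the highest of the CON libraries. SKP1, the adaptor of SCF ubiquitin ligases, was at 106.4, 81.9, 125.9, 91.1 and 107.1 FPKM in CON and at 60.2 to 81.6 on grain. Its change was -0.52 ± 0.11 (SE; adjusted p = 0.029). ATOX1, the copper chaperone, was at 139.6 to 283.9 FPKM in CON and 112.1 to 159.8 on grain, where CON2 overlapped, and it fell by 0.68 ± 0.14. TRMT112, a partner of several methyltransferases, fell by 0.93 ± 0.19 (SE; adjusted p = 0.029). IER3IP1 of the endoplasmic reticulum was close to equal in the CON libraries, at 12.4 to 13.4 FPKM, and at 8.05 to 10.9 FPKM on grain; it fell by 0.40 ± 0.09 (SE; adjusted p = 0.029).

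**Figure D3:**
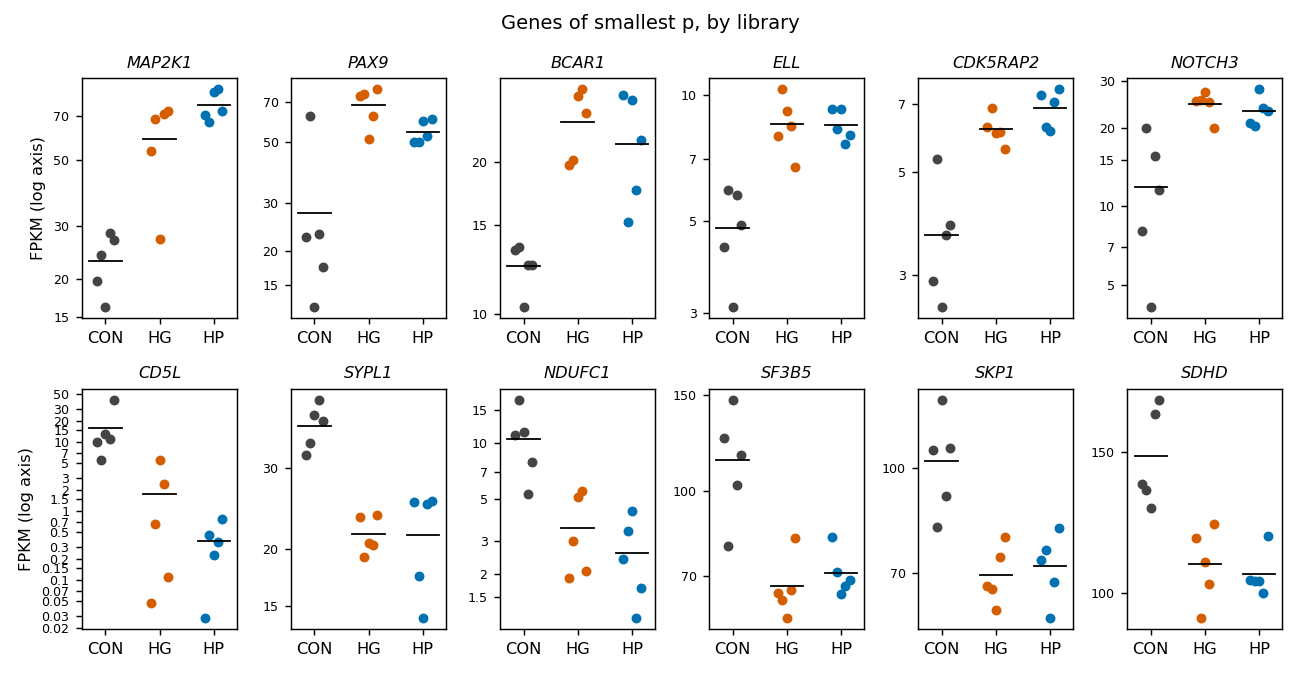
FPKM of 12 genes named among those of smallest p, on log axes. Each point is 1 of 5 libraries per group and the bar is the group's mean; MAP2K1 is higher in 9 of 10 high-grain libraries than in any CON library, and CON2 has a PAX9 level of 62.4 FPKM within the high-grain range.

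The genes were then read by groups. Lists of genes were described by how many members passed the test in each direction and by their median change relative to the median of all genes tested. The shares to set them against are 12% higher and 2.44% lower as deposited, and 4.99% and 5.45% after scaling. Members of a list were measured in the same libraries, so its count is not a count of independent events.

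Attachment of basal cells to the basement membrane was the epithelial group with the most calls. Of 17 basal and hemidesmosome genes, 9 rose and 0 fell, and 6 rose after scaling. The group's median change was 0.47 above all genes, 0.44 after scaling, and 0.36 above all genes without CON1 and CON3. COL17A1, the transmembrane collagen of hemidesmosomes, was at 37.2, 73.7, 36.8, 63.4 and 50.9 FPKM in CON1 to CON5 and at 59.4 to 110.3 (median 89.7) on grain. CON2 and CON4 reached the lower end of the high-grain libraries. COL17A1 rose by 0.78 ± 0.17 (SE; adjusted p = 0.029), by 0.78 in both HG and HP. COL7A1, the collagen of the anchoring fibrils below the basement membrane, rose by 1.13 ± 0.28, LAMA3, a chain of laminin-332, by 0.61 ± 0.15 and CD151, a tetraspanin that binds laminin-receptor integrins, by 0.65 ± 0.15 (SE; adjusted p from 0.029 to 0.0296). The other 5 that rose were ITGB1, LAMB3, LAMA5, DST and PLEC, of which DST and PLEC did so on both scales.

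Genes of cell-to-cell junctions were called in the higher direction only, with fewer calls after scaling. In the desmosome 5 of 11 genes rose, and 1 after scaling. This was PKP1, a plakophilin of the suprabasal plaque, at 36.4, 122.6, 18.1, 117.5 and 71.5 FPKM in CON1 to CON5 and at 106.5 to 198.4 (median 139.1) on grain. CON2 and CON4 lay within the high-grain range and CON3 was lowest by far. PKP1 rose by 1.34 ± 0.34 (SE; adjusted p = 0.0302). Without CON1 and CON3 its change was 0.57. Of 15 adherens and gap junction genes 4 rose, among them CDH1, the epithelial cadherin, by 0.62 ± 0.17, CTNND1, which holds cadherin at the membrane, by 0.79 ± 0.19, and GJB2, connexin 26, by 0.58 ± 0.16 (SE; adjusted p 0.032, 0.0295 and 0.0314). After scaling only CTNND1 passed.

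Of 19 tight junction genes 4 rose as deposited and 0 after scaling, when 5 had an unadjusted p under 0.05 and a higher level on grain (all genes 16.6%, and 16.1% in the lower direction). CLDN1 was at 42.9 to 92.5 FPKM in CON and 79.8 to 136.2 on grain and rose by 0.60 ± 0.17 (SE; adjusted p = 0.0362). TJP3, zonula occludens 3, rose by 0.52 ± 0.12 (SE; adjusted p = 0.029). The median of the tight junction genes was 0.22 above all genes, and 0.02 without CON1 and CON3. In the cornified layer, 2 of 18 keratinization genes rose, EVPL and PPL, the envoplakin and periplakin of the cornified envelope. The share of all genes that rose as deposited was 12%. PPL was at 40.5, 56.8, 29.8, 54.0 and 30.0 FPKM in CON1 to CON5, and no high-grain library was under 60.2. It rose by 0.80 ± 0.17 (SE; adjusted p = 0.029). Keratins themselves have close relatives that can share reads, and their levels are uncertain.

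Among growth factor receptors, ligands and their adaptors 7 of 21 tested members rose and 0 fell, and 4 rose after scaling. IGF1R, through which IGF1 signals, was at 2.58, 9.05, 1.95, 5.58 and 3.53 FPKM in CON1 to CON5 and at 6.35 to 13.4 (median 8.88) on grain. CON2 lay in the middle of the high-grain values and the other 4 CON libraries were below them. IGF1R rose by 1.00 ± 0.23 (SE; adjusted p = 0.029). ERBB2, the co-receptor of the EGF receptor family, was at 10.6 to 20.3 FPKM in CON and 18.7 to 31.1 on grain and rose by 0.72 ± 0.14 (SE; adjusted p = 0.029). EGFR itself was at 1.63 to 15.7 FPKM in CON and at 4.92 to 28.0 on grain. It rose by 1.44 ± 0.42 (SE; adjusted p = 0.0389), and had a change of 0.68 with an unadjusted p of 0.107 without CON1 and CON3. IGF2R, which clears IGF2 and sorts lysosomal enzymes, was at 0.614 to 7.45 FPKM in CON and 3.45 to 11.4 on grain. It rose by 1.33 ± 0.34 (SE, adjusted p = 0.0304), and its change was 0.624 without CON1 and CON3.

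Downstream, 6 of 24 members of the RAS-ERK cascade rose, of which MAP2K1 and LZTR1 also did so after scaling. GRB2, an adaptor between receptors and RAS activation, fell after scaling only, by 0.94 ± 0.26 (SE; adjusted p = 0.0365). LZTR1, an adaptor for the degradation of RAS proteins, was at 1.80 to 4.28 FPKM in CON and at 3.45 to 11 on grain and rose by 1.12 ± 0.24 (SE; adjusted p = 0.029). ARAF, 1 of the RAF kinases, was apart between the groups at 8.20 to 10.2 and 10.9 to 13.8 FPKM, and rose by 0.38 ± 0.09 (adjusted p = 0.0295). After scaling the groups overlapped, and the change of ARAF was 0.18 with an adjusted p of 0.165. The median of the cascade was 0.21 above all genes, and 0.11 above without CON1 and CON3.

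The Notch pathway, which drives differentiation of stratified epithelia, had 6 of 17 members higher and 0 lower, and 5 higher after scaling. NOTCH3 was at 8.08, 19.9, 4.12, 15.6 and 11.6 FPKM in CON1 to CON5 and at 19.9 to 28.0 (median 24.4) on grain. The groups did not overlap, and CON2 lay just under the lowest high-grain library. NOTCH3 rose by 1.10 ± 0.23, NOTCH1 by 0.73 ± 0.21, the ligand JAG1 by 0.57 ± 0.15 and the coactivator MAML3 by 0.78 ± 0.20 (SE; adjusted p 0.029, 0.0359, 0.0307 and 0.0295). The median of the pathway was 0.19 above all genes, and 0.13 above without CON1 and CON3.

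Of 25 genes of focal adhesions and actin regulation 13 rose, 8 of them after scaling, and 0 fell. BCAR1, the scaffold p130Cas, was at 13.4, 13.6, 10.3, 12.5 and 12.5 FPKM in CON1 to CON5. On grain it was at 15.2 to 27.9 (median 23.5), with no overlap as deposited but an overlap after scaling. It rose by 0.81 ± 0.14 (SE; adjusted p = 0.029) and its change was 0.76 without CON1 and CON3. PXN, paxillin, was at 3.29, 6.81, 0.962, 5.74 and 4.87 FPKM in CON and at 7.22 to 15.7 (median 10.2) on grain, apart on both scales. PXN rose by 1.20 ± 0.26 and SRF, the serum response factor that reads the state of actin, by 1.14 ± 0.22 (SE; adjusted p = 0.029 for both). ACTN4, which cross-links actin, rose by 0.82 ± 0.21 (adjusted p = 0.0297). SMTN and MYLK of smooth muscle, at 29.2 to 115.8 and 11.8 to 155.3 FPKM on grain, were not called. Smooth muscle as a list had 0 of 9 members called, and its summed level differed by 791.4 FPKM (two-sided exact permutation test, p = 0.431). HG2, HG3 and HP5, which hold most of these transcripts, are all high-grain libraries. The fit without CON1 and these 3 libraries kept CON3, was chosen after seeing the data, and called 3 genes as deposited. There the median change of the focal adhesion list was 0.45 against 0.15 for all genes, and 0.27 against 0.00 after scaling. The part of muscle transcripts in the focal adhesion calls was not tested.

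Among 37 regulators of chromatin 18 rose and 0 fell, and 11 rose after scaling, with a median 0.49 above all genes and 0.25 above without CON1 and CON3. SMARCA2, an ATPase of the SWI/SNF remodeller, was at 3.41, 7.38, 2.95, 8.54 and 5.78 FPKM in CON1 to CON5 and at 7.60 to 21.6 (median 13.0) on grain. CON4 was within the high-grain range. SMARCA2 rose by 1.16 ± 0.25 and ARID1A, a subunit of the same complex, by 0.80 ± 0.16 (SE; adjusted p = 0.029 for both). HDAC4, a class IIa histone deacetylase, was at 0.540, 4.86, 0.430, 3.41 and 1.43 FPKM in CON and at 3.17 to 7.19 on grain. It rose by 1.24 ± 0.29 (adjusted p = 0.029), and CON1 and CON3 were lowest. KMT2D, a histone H3 lysine methyltransferase, was at 0.616 to 8.38 FPKM in CON and 5.61 to 12.1 on grain. CON2 and CON4 lay within the high-grain range. KMT2D rose by 1.22 ± 0.31 (adjusted p = 0.0301), and its change was 0.605 without CON1 and CON3.

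Of 16 genes of the circadian clock 5 rose, 4 of them after scaling: PER2, CRY2, TEF and HLF, and NR1D2 as deposited only. PER2, a repressor of the clock, was at 0.983, 3.02, 0.351, 2.12 and 1.96 FPKM in CON and at 2.04 to 5.55 (median 4.16) on grain. CON2 and CON4 lay above the lowest high-grain library. PER2 rose by 0.93 ± 0.24 (SE; adjusted p = 0.0307). TEF and HLF, factors of the D-box, rose by 0.70 ± 0.16 and 0.96 ± 0.25. The hour of sampling is not given in the sources used here. Of 21 energy and mTOR genes 6 rose, 4 after scaling. The median of this list was 0.09 above all genes, and 0.06 above without CON1 and CON3. SESN3, a sestrin that curbs mTORC1, rose by 0.85 ± 0.18 and CAMKK2, an upstream kinase of AMPK, by 1.19 ± 0.26 (adjusted p = 0.029 for both). Of 21 immediate early genes 3 rose, EGR1, ZFP36 and BTG2, and BTG2 as deposited only. Among all genes 12% rose as deposited and 4.99% after scaling.

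Of 24 transporters of acid, bicarbonate and sodium 4 rose, 3 of them after scaling, where 12% and 4.99% of all genes did. The median of the list was 0.16 above all genes, and 0.05 above without CON1 and CON3. SLC9A3, the sodium-proton exchanger NHE3 of the luminal side of epithelia, was at 12.3, 36.0, 5.23, 38.1 and 14.4 FPKM in CON1 to CON5 and at 27.0 to 100.2 (median 55.3) on grain. CON2 and CON4 overlapped the lower high-grain libraries. SLC9A3 rose by 1.60 ± 0.39 (SE; adjusted p = 0.0295), by 1.42 in HG and 1.77 in HP. The scaled change was 1.40. Without CON1 and CON3 the change was 0.95 as deposited (unadjusted p = 0.0196) and 0.88 scaled. SLCO2A1, a prostaglandin transporter, rose by 0.82 ± 0.20 (adjusted p = 0.0295). SLC4A2, an anion exchanger, was called as deposited only.

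In ketogenesis 1 of 13 rose and 0 did after scaling. BDH1, the last enzyme of ketone body synthesis, was at 183.9, 206.5, 222.9, 178.7 and 339.4 FPKM in CON and at 159.6 to 518.6 (median 349.8) on grain, a change of 0.63 ± 0.24 that did not pass (adjusted p = 0.0772). Of 24 genes of fatty acid oxidation 3 rose and 1 fell, and 1 each after scaling. For all genes these shares were 12% and 2.44% as deposited, and 4.99% and 5.45% after scaling. PPARA, the nuclear receptor that induces this pathway, rose by 0.74 ± 0.15, also after scaling (adjusted p = 0.029 and 0.0300). CPT1A, the carnitine transferase of the outer membrane, rose by 0.71 ± 0.19 as deposited (adjusted p = 0.0318). ETFA, which takes electrons from the acyl-CoA dehydrogenases, was at 192.0 to 251.3 FPKM in CON and 94.6 to 191.1 on grain and fell by 0.60 ± 0.16 (adjusted p = 0.0334). Of 19 genes of glycolysis 2 rose as deposited, HK1 by 0.48 ± 0.12 and PFKM by 0.67 ± 0.21 (adjusted p 0.0295 and 0.0439), and 0 after scaling (adjusted p 0.0745 and 0.0747). LDHA fell on both scales, by 0.33 ± 0.10 as deposited (adjusted p = 0.0423, and 0.0322 scaled). Of 24 cholesterol genes 1 rose as deposited, SREBF2, the master factor of the pathway, by 0.83 ± 0.23 (adjusted p = 0.0346, and 0.0524 scaled). After scaling 0 rose and 1 fell, MSMO1, a sterol oxidase of the pathway, by 0.82 ± 0.22 (adjusted p = 0.0357).

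Subunits of the respiratory chain were called in the lower direction only. As for all calls, any relation to transcript length was not tested, here and for the ribosomal proteins. In complex I, which oxidizes NADH, 13 of 38 nuclear-encoded genes fell on both scales and 0 rose. Their median change was -0.55 relative to all genes and -0.59 after scaling. With quantile normalization it was -0.18, and without CON1 and CON3 -0.24 relative to all genes. NDUFS4, an assembly-critical subunit, was at 118.6, 81.3, 162.9, 91.0 and 104.1 FPKM in CON1 to CON5 and at 58.8 to 84.5 (median 67.5) on grain. CON2 alone lay within the high-grain range. NDUFS4 fell by 0.65 ± 0.15 and NDUFB5 by 0.60 ± 0.12 (SE; adjusted p = 0.029 for both). NDUFC1 had 11, 17.0, 11.5, 5.33 and 7.93 FPKM in CON and 1.16 to 5.53 (median 2.69) on grain, with CON4 in the high-grain range. It fell by 1.51 ± 0.27 (SE; adjusted p = 0.029), and its change without CON1 and CON3 was -1.40.

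Of 19 tested genes of complexes II to V, 8 fell, 9 after scaling, and 0 rose, with a median of -0.51 relative to all genes. The median was -0.17 with quantile normalization, and -0.26 relative to all genes without CON1 and CON3. SDHD, a membrane anchor of succinate dehydrogenase, was at 136.9, 134.6, 127.9, 167.4 and 174.4 FPKM in CON and at 93.0 to 122.0 (median 103.7) on grain. The groups were apart, and CON3 was the lowest CON library. SDHD fell by 0.46 ± 0.10 (adjusted p = 0.029) and its change was -0.56 without CON1 and CON3. SDHC fell by 0.39 ± 0.09, UQCRH of complex III by 0.54 ± 0.16 and ATP5PO of the ATP synthase by 0.59 ± 0.14 (adjusted p 0.0295, 0.0363 and 0.0295). Of 18 citric acid cycle genes 1 rose, OGDH, as deposited only, and 4 fell after scaling only. Of the 39 genes listed for complexes II to V, 20 were found by symbol and 19 were tested. The counts and the median given for these complexes therefore cover only part of the list.

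Genes of the translation machinery fell in part. Of 72 cytosolic ribosomal protein genes 17 fell, 22 after scaling, and 0 rose. The median was -0.57 relative to all genes, -0.06 with quantile normalization and -0.21 relative to all genes without CON1 and CON3. RPS23 was at 1355.9, 821.5, 1905.2, 1069.8 and 1151.3 FPKM in CON1 to CON5 and at 546.1 to 960.7 (median 725.6) on grain. CON2 was within the high-grain range and CON3 highest. RPS23 fell by 0.74 ± 0.17 and RPL37 by 0.85 ± 0.21 (SE; adjusted p 0.029 and 0.0295). Ribosomal protein genes have many processed pseudogenes, so their levels are uncertain. Mitochondrial ribosomal proteins, which build the organelle's own ribosome, fell in 11 of 63 genes and in 18 after scaling. MRPL13 was at 49.4 to 87.9 FPKM in CON and 25.3 to 58.4 on grain and fell by 0.67 ± 0.17 (adjusted p = 0.0295).

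**Figure D4:**
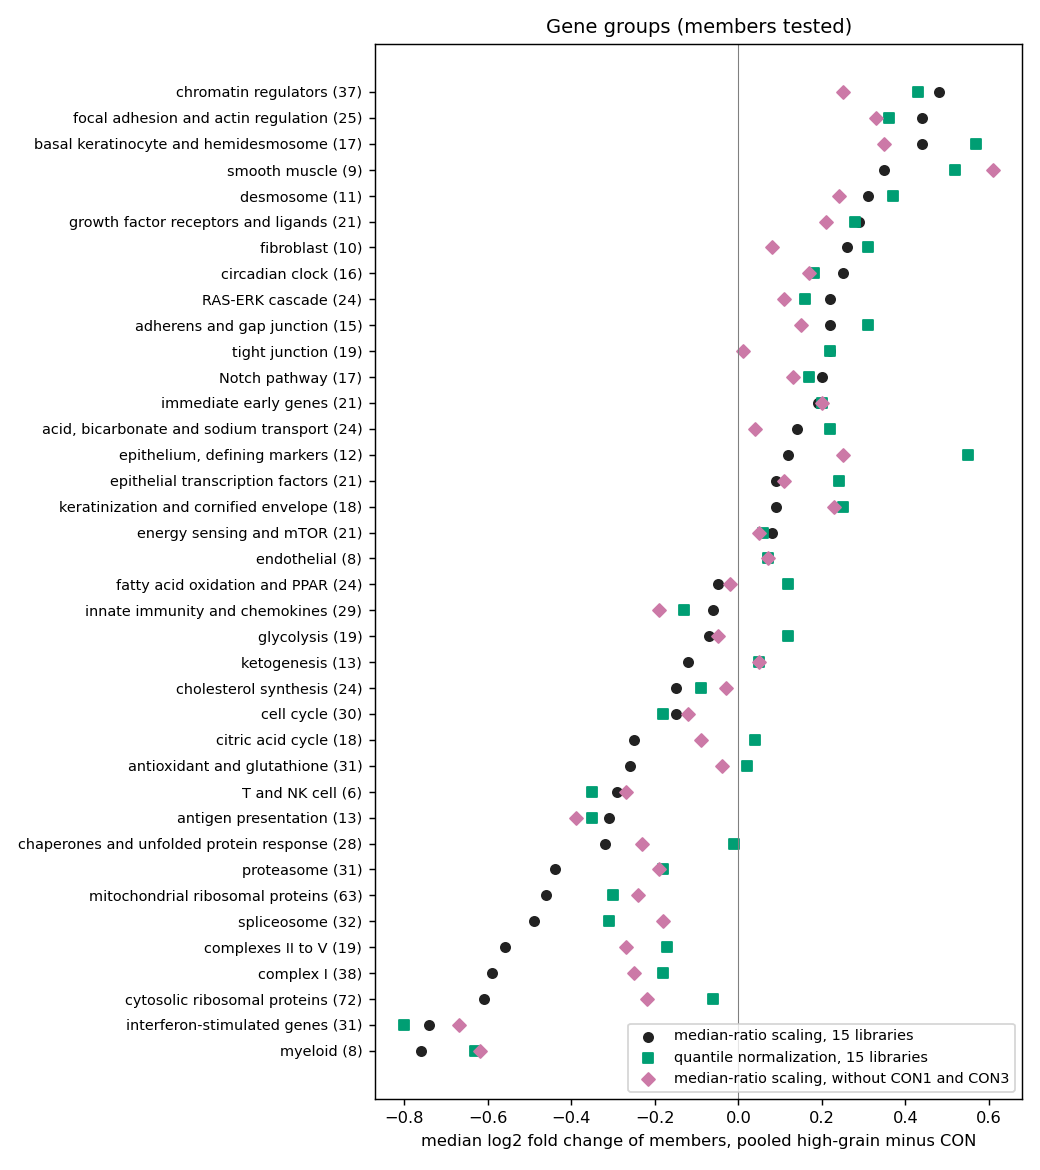
Median log2 fold change of the members of each list with at least 6 genes tested, pooled high-grain minus CON, on log2(FPKM + 1). Circles are median-ratio scaling, squares quantile normalization and diamonds median-ratio scaling without CON1 and CON3; cytosolic ribosomal proteins move from -0.61 to -0.06 with quantile normalization, while interferon-stimulated genes stay between -0.80 and -0.67.

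Proteasome and spliceosome genes had medians of -0.40 and -0.45 relative to all genes. With quantile normalization the medians were -0.18 and -0.31. Without CON1 and CON3 they were -0.18 and -0.17 relative to all genes. Of 31 proteasome genes 9 fell as deposited, all of them subunits of the 20S core, and 0 rose. PSMA4 was at 61.6, 40.8, 71.3, 51.6 and 63.0 FPKM in CON1 to CON5 and at 30.3 to 45.5 (median 34.7) on grain; CON2 was the exception within that range. It fell by 0.63 ± 0.14 and PSMA5 by 0.48 ± 0.13 (adjusted p 0.029 and 0.0307). In the spliceosome 6 of 32 genes fell and 2 rose, and 10 fell and 0 rose after scaling. SF3B5, a small subunit of the U2 particle, was at 125.4, 79.5, 146.9, 102.8 and 116.5 FPKM in CON and at 58.7 to 82.5 on grain and fell by 0.70 ± 0.13 (adjusted p = 0.029). PRPF8 and SNRNP200, the large core proteins of the U5 particle, rose by 0.62 ± 0.17 and 0.52 ± 0.16 as deposited (adjusted p 0.033 and 0.0418), not after scaling. Of 28 chaperone genes 5 fell after scaling and 2 as deposited, MANF of the endoplasmic reticulum by 0.58 ± 0.17 and the mitochondrial chaperonin HSPD1 by 0.36 ± 0.11 (adjusted p 0.0359 and 0.0377).

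Of 31 antioxidant and glutathione genes 5 fell, 7 after scaling, and 1 rose, as deposited only. Microsomal glutathione transferases were 3 of the 5. MGST3 was at 1509.0, 996.8, 1638.9, 1253.2 and 1247.1 FPKM in CON1 to CON5 and at 735.2 to 1181.2 (median 816.4) on grain, so that CON2 overlapped. It fell by 0.62 ± 0.14 (adjusted p = 0.029). MGST2 was at 38.7 to 118.2 FPKM in CON and at 7.46 to 74.7 on grain, with a median of 13.9. It fell by 1.84 ± 0.50 (adjusted p = 0.0335), and the change was -1.84 without CON1 and CON3. TXN, thioredoxin, fell by 0.64 ± 0.21 (adjusted p = 0.0494). The median of the list was -0.22 relative to all genes but 0.02 with quantile normalization.

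Interferon-stimulated genes, the antiviral genes that type I interferon induces, had the lowest median among the lists with at least 10 members tested, at -0.75 relative to all genes and -0.69 without CON1 and CON3. The libraries scattered widely and 1 of 31 genes passed the test, IFI35, which fell by 0.78 ± 0.25 (adjusted p = 0.0485); 9 had an unadjusted p under 0.05, all lower on grain, where 6.76% of all genes did. ISG15, a ubiquitin-like modifier, was at 400.4, 214.8, 153.5, 267.1 and 127.9 FPKM in CON1 to CON5. On grain it ranged from 2.36 to 382.4 FPKM with a median of 33.4, and HG2 and HG4 lay within the CON range while the other 8 were below it. The change of -2.51 ± 0.86 (SE) did not pass, as deposited or scaled (adjusted p = 0.0605 and 0.0517), and was -1.73 in HG and -3.29 in HP. In the fit of HP alone against CON, ISG15 was 1 of 7 called genes (adjusted p = 0.00793). OAS1, a sensor of double-stranded RNA, was at 47.4 to 95.1 FPKM in CON and 10.4 to 104.4 on grain, a change of -0.98 ± 0.37 that was called after scaling only (adjusted p = 0.0744 and 0.0442).

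In antigen presentation 2 of 13 genes fell, and 3 after scaling. CTSS, the protease that trims the invariant chain of MHC class II, was at 16.3, 11.5, 32.1, 41.3 and 24.4 FPKM in CON1 to CON5 and at 5.62 to 22.1 (median 7.70) on grain, where CON1 and CON2 overlapped. CTSS fell by 1.20 ± 0.34 and PSMB10, a subunit of the immunoproteasome, by 0.71 ± 0.20 (SE; adjusted p 0.0353 and 0.0373). B2M, the light chain of MHC class I, had a change of -0.88 ± 0.36 (adjusted p = 0.0923 as deposited and 0.0486 scaled). Of 29 innate immune and chemokine genes 2 rose and 0 fell as deposited, and 1 rose and 1 fell after scaling. All genes had shares of 12% and 2.44% as deposited, and 4.99% and 5.45% after scaling. MYD88, the adaptor of Toll-like receptors, rose on both scales, by 0.88 ± 0.23 as deposited (adjusted p = 0.0307, and 0.0357 scaled). CXCL10, an interferon-induced chemokine, fell after scaling only, by 1.09 ± 0.34 (adjusted p = 0.0482). S100A8, a calprotectin subunit of neutrophils and stressed keratinocytes, ranged from 1579.0 to 9132.2 FPKM in CON and from 526.7 to 2907.6 on grain. Its change of -1.26 ± 0.46 did not pass (adjusted p = 0.071).

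Markers of other cells of the ruminal wall were summed for each library. Myeloid markers were at 166.7 to 284.9 FPKM in CON and 77.5 to 277.7 on grain, and 1 of 8 was called as deposited, CSF1R, the receptor of macrophage growth factors, which rose by 0.64 ± 0.20 (adjusted p = 0.0459). C1QA and C1QC, complement components made by macrophages, had changes of -0.72 ± 0.29 and -0.70 ± 0.25, called after scaling only (adjusted p 0.0494 and 0.0373). CSF1R and the complement genes had changes of opposite sign. None of the 8 detected myeloid markers was at 0 in any library. T and NK markers summed to 21.2 to 39.7 FPKM in CON and 12.8 to 42.4 on grain, with 0 of 6 tested called. Fibroblast markers summed to 1113.4 ± 206.5 FPKM in CON and 1531.8 ± 302.0 on grain (SD), and 2 of 10 rose, among them COL1A1, a chain of type I collagen, by 0.83 ± 0.19 (adjusted p = 0.029). Of 8 endothelial markers 1 rose, VWF, by 0.65 ± 0.20 as deposited (adjusted p = 0.0452). The counts of risen cell markers stand beside 12% of all genes as deposited and 4.99% after scaling. In bulk tissue fewer cells of a type and less RNA per cell cannot be told apart, and the part of these cell markers in the changes of CD5L, CTSS and the interferon-stimulated genes was not tested.

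**Figure D5:**
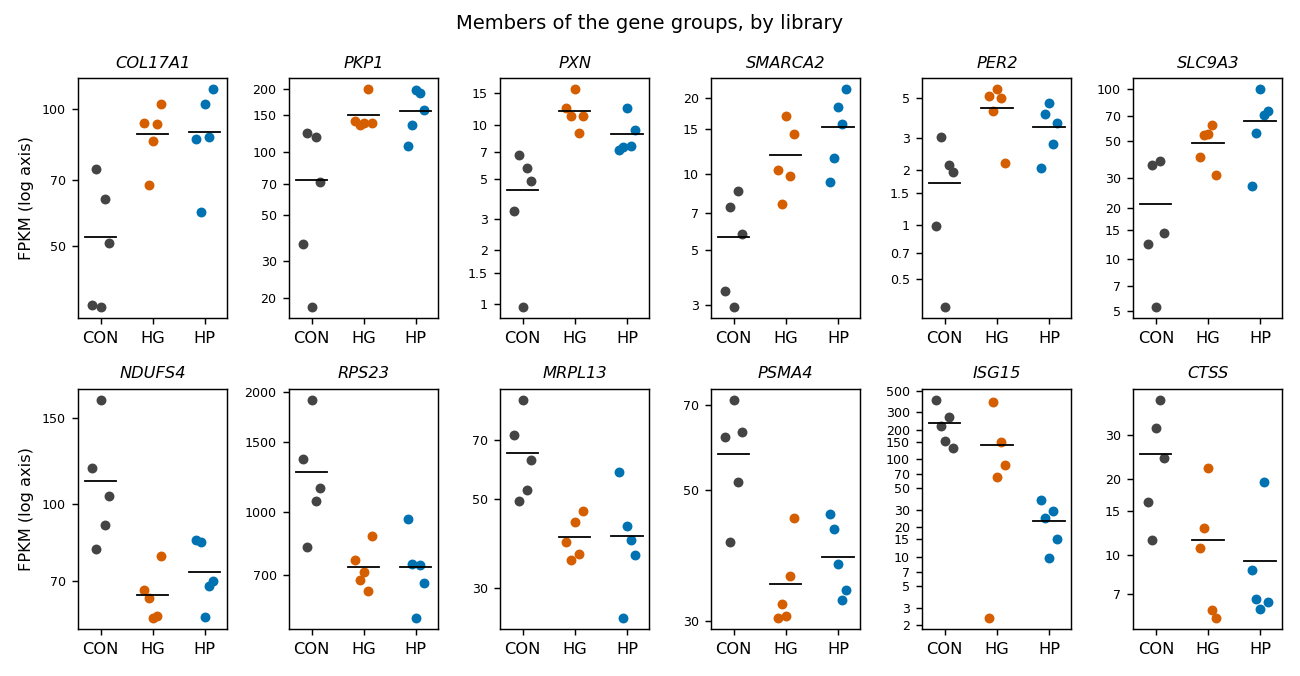
FPKM of 12 members of the gene groups, on log axes, with 5 libraries per group as points and the group's mean as a bar. COL17A1, PKP1, PXN, SMARCA2, PER2 and SLC9A3 are higher on both high-grain diets, NDUFS4, RPS23, MRPL13, PSMA4 and CTSS are lower, and ISG15 spans 2.36 to 382.4 FPKM on grain.

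Each diet was also read alone against the same CON libraries. The median change of the hemidesmosome list was 0.73 in HG and 0.60 in HP, that of the chromatin regulators 0.64 and 0.66, that of complex I -0.35 and -0.42 and that of cytosolic ribosomal proteins -0.35 and -0.44. Interferon-stimulated genes were at -0.27 in HG and -0.88 in HP, with a median HP minus HG difference of -0.50, and smooth muscle markers at 1.33 and -0.15. No gene of these lists was called between HP and HG.

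Of 30 cell cycle genes 2 rose as deposited, CCND2, a D-type cyclin, by 0.84 ± 0.22 and CDKN1B, an inhibitor of cyclin-dependent kinases, by 0.47 ± 0.13 (adjusted p 0.0307 and 0.0325), and neither did after scaling. PCNA, the sliding clamp of DNA polymerases, fell after scaling only, by 0.72 ± 0.20 (SE; adjusted p = 0.0381). The median of the list was -0.14 relative to all genes, of which 12% rose as deposited and 5.45% fell after scaling.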

How the data were processed

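The 15 libraries were compared as CON (5) against HG and HP together (10). Per the file headers, the authors deposited FPKM values per gene, 1 table per library. The submitters' processing notes list HISAT2 and StringTie 1.3.4d without saying what each did. Genome build, annotation and read filters: not given in the sources used here. Because FPKM holds no depth, counting error cannot be stated, and abundant genes of a library weigh on the level of its other genes. Whole reads could not be recovered from low values, so no count test was run. A symbol stood in the tables for 13214 of 19304 genes, and 346 more were looked up in RefSeq (assembly ARS-UI_Ramb_v3.0), for names only.

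Genes that reached 1 FPKM in 5 or more libraries were tested with limma 3.58.1 in R 4.3.3 (robust, with a trend; statmod 1.5.0). Values entered as log2(FPKM + 1), which understates changes of low genes. P-values were adjusted by Benjamini-Hochberg over 13084 genes, with a threshold of 0.05; many share a value near 0.029 through this adjustment. HP was set against HG in a model of 3 group means. Scaling used the median ratio over FPKM. The fit was checked on simulated data. The groups, the 44 gene lists (883 of 998 memberships tested) and the alternatives were chosen with earlier results of these data known. Genes were named by rule: up to 12 per direction and scale by smallest p with at least 5 FPKM in the higher group, the 3 members of smallest p and any called member of each list, and 3 called genes of smallest p for HP minus HG. Alternatives were another pseudocount, other filters, quantile normalization, array weights, group means, a replicate block, each diet alone and libraries left out. Some called list members are counted but not reported here by name.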

Additional observations from a re-analysis of the deposited data

Results flagged for a closer look

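In 232 groups of values tested for a single library far from the rest (Dixon's test at the 95% level), 19 held one, or 8.19%. Chance gives about 1 in 20 for independent groups of normally spread values. These were values without logs, mostly FPKM, and the groups share the same 15 libraries, so no excess over chance can be read from the 19. Among the CON libraries, CON5 stood highest for CD5L at 40.9 FPKM (the next was 13.0) and for BDH1 at 339.4, CON2 for PAX9 at 62.4 and for LAMB3 at 33.2, CON1 for IFI35 at 57.4 and CON3 for S100A8 at 9132.2 FPKM. Of the 10 high-grain libraries, HG2 stood highest for 3 interferon-stimulated genes, ISG15 at 382.4, OAS1 at 104.4 and IFI35 at 38.4 FPKM, and for CXCL10 at 8.08 FPKM. HG3 stood highest for CD5L at 5.56 and for CPT1A at 18.8 FPKM, and HG1 for EGR1 at 17.4 and CCND2 at 54.1 FPKM. HG5 was highest for MGST3 at 1181.2 and lowest for ARID1A at 6.66 FPKM, and HP3 was highest for GJB2 at 1530.5 and for GRB2 at 20.2 FPKM. The share of FPKM in cytosolic ribosomal protein genes was lowest in HP3, at 18.4%. Whether this bears on the calls lost without HP3 was not tested.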

How the results depend on the processing

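As deposited, 1566 genes were called higher and 319 lower. Median-ratio scaling gave 653 and 713, quantile normalization 426 higher and 416 lower, and no filter on low values 861 and 177. With the replicate number as a block 1009 were higher and 185 lower, and with scaling and the block 273 higher and 271 lower. Of 15 same-numbered pairs 3 had a correlation over 0.1, and 4 of 15 libraries correlated best with their own number. With 5 libraries per group, low correlations cannot show that numbers do not pair the libraries. Leaving out 1 library gave 0 to 3121 higher and 0 to 638 lower, with scaling 0 to 1644 and 0 to 1570, and moved the factor difference between 0.0894 and 0.172. In HP against HG it gave 0 to 1 called genes. Without CON1 and CON3, 0 and 0 were called on both scales, and without CON2 and HP1 3263 and 799, or 1990 and 1845 with scaling. HG alone against CON gave 1 and 0, HP alone 1 and 6. Without CON1, HG2, HG3 and HP5, 1 and 2 were called, with scaling 1 and 3; this setting, and the scaled fit without CON2 and HP1, were chosen after seeing the data. The cause was not tested in these cases. Array weights, a pseudocount of 0.1, a filter at 5 FPKM and group means kept both counts within 1.5 times. No named gene called as deposited changed sign under any alternative. The depth of the libraries is unknown, so its limits on low genes cannot be given.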
